A study of Homo sapiens with 12 samples.

Results

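Daoy cells, an established human medulloblastoma (MB) line, were compared after 3 passages (P3) and after 1 passage (P1) in control medium alone. By the sample labels no astrocyte product was in these cultures. The 6 arrays were chosen by their labels for medium and passage, 3 labelled P3 DMEM and 3 labelled P1 DMEM, out of 12 in the series. The other 6 arrays hold cells kept in medium collected from cultured rat hippocampal astrocytes (ACM), for which DMEM is the control. All 6 cultures described here were in DMEM with 10% fetal bovine serum and antibiotic antimycotic, were detached with 0.25% trypsin EDTA, were reseeded 1:3, and spent 48 h in each passage. P1 and P3 cultures therefore differ in their number of passages and in total time. The methods speak of independent experiments, and p-values here measure only the spread between these samples.

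An MB is a tumour of the cerebellum of children, and Daoy is used as a model of the Sonic hedgehog type, in which the pathway that drives division of cerebellar granule neuron precursors is active. Serial passage exposes an adherent line again and again to detachment, replating at low density and regrowth. Gene groups that answer to such handling in adherent lines include YAP and TEAD targets, which respond to cell density and spreading, matrix genes, and immediate early and cytokine genes, which respond within hours to fresh serum. Metallothioneins, small cysteine-rich proteins that bind zinc and copper, follow the metal supply of the medium and glucocorticoids in serum.

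The level of a gene is given on a log2 scale, as log2 of the background-corrected intensity of its probe relative to the 75th percentile of all probes on that array, so that 0 is the 75th percentile. Of 34127 probes, 25130 (73.6%) were well above background on all 6 arrays, and these measured 20451 genes, 15640 of them with a symbol. A gene is said to have risen or fallen only where the difference was more than 2-fold and its limma p before adjustment was at most 0.05, the thresholds of the study. Markers of the line were looked up: 15 of 17 genes that mark Daoy, mesenchymal cells or Sonic hedgehog MB were measured, VIM, CD44, FN1, NES and GLI2 among them, and none (0) passed the thresholds. This is no test of the line's identity, since 73.6% of all probes were well above background on all 6 arrays. ATOH1 was well above background on 0 of 3 P1 and 1 of 3 P3 arrays and ZIC1 on 2 and 3. Of the markers of other cells, the astrocyte gene GFAP was well above background on 2 of 3 P1 and 2 of 3 P3 arrays and so was not measured. In all, 5 of 8 astrocyte, 6 of 10 neuron, 8 of 10 leukocyte, 6 of 8 epithelial, 3 of 6 endothelial and 8 of 9 fibroblast markers were measured.

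Several features of the arrays bear on all results. The 3 P3 DMEM arrays lay on 1 slide together with P1 DMEM replicate 3, while P1 DMEM replicates 1 and 2 lay on a slide with ACM arrays. The share of probes well above background was 74.2% and 80.2% in P1 DMEM replicates 1 and 2, and 88.1% to 91.0% on the slide of P3 DMEM, where P1 DMEM replicate 3 had 90.2%. Passage and slide can thus be told apart only through P1 DMEM replicate 3. A table of log2 values deposited beside the scanner output carries labels that conflict with those of the scanner output for every array: its column for P1 DMEM replicate 1, for example, ranked the probes as the scanner output of P3 DMEM replicate 1 did (Spearman correlation across probes of at least 0.9995 for each of the 12 columns with 1 array of another label). Of the arrays compared here, by the table P1 DMEM replicates 1 and 2 would be P1 ACM and P3 DMEM replicates 2 and 3 would be P3 ACM. P3 DMEM replicate 1 and P1 DMEM replicate 3 would be P1 DMEM. The directions below follow the labels of the scanner output. NCAM2, an adhesion gene the study followed in ACM, shows what the choice changes: by the scanner output it was at −0.83, −0.68 and −0.81 in P1 ACM, −0.73, −2.15 and −2.29 in P3 ACM and −2.01, −1.83 and −2.10 in P1 DMEM, whereas by the table the 3 arrays called P1 ACM here would be P3 DMEM. No test of which labels are right was made.

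Between P1 and P3, 365 of 20451 genes (1.78%) passed the thresholds. Of these, 143 rose (0.699%) and 222 fell (1.09%). The median difference over all genes was 0.04. With 3 arrays in each group no gene (0) had an adjusted limma p of 0.05 or less, the smallest being 0.397, whereas 2520 genes were at or under 0.05 before adjustment. An exact two-sided permutation test of 3 against 3 arrays cannot give a p below 0.1, which every gene named here without overlap between the groups reached. In 4166 genes (20.4%) the P3 and P1 arrays did not overlap, and 290 of the 365 were among these.

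P1 DMEM replicate 3 was used as the slide check. A gene met it where the groups did not overlap and the P3 mean differed from P1 DMEM replicate 3 by more than 2-fold in the same direction. This was so for 180 genes (0.88%), with 40 rises (0.196%) and 140 falls (0.685%). With slide as a fixed block 433 genes passed the thresholds, 84 upwards and 349 downwards, and 143 of them were among the 365. The check uses an array that is itself in the fit and is not a replicate of it. P1 DMEM replicate 3 itself differed from the mean of P1 DMEM replicates 1 and 2 by more than 2-fold, higher in 649 genes and lower in 222. The P3 mean was in turn more than 2-fold higher than P1 DMEM replicate 3 in 136 genes and lower in 520.

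**Figure D1:**
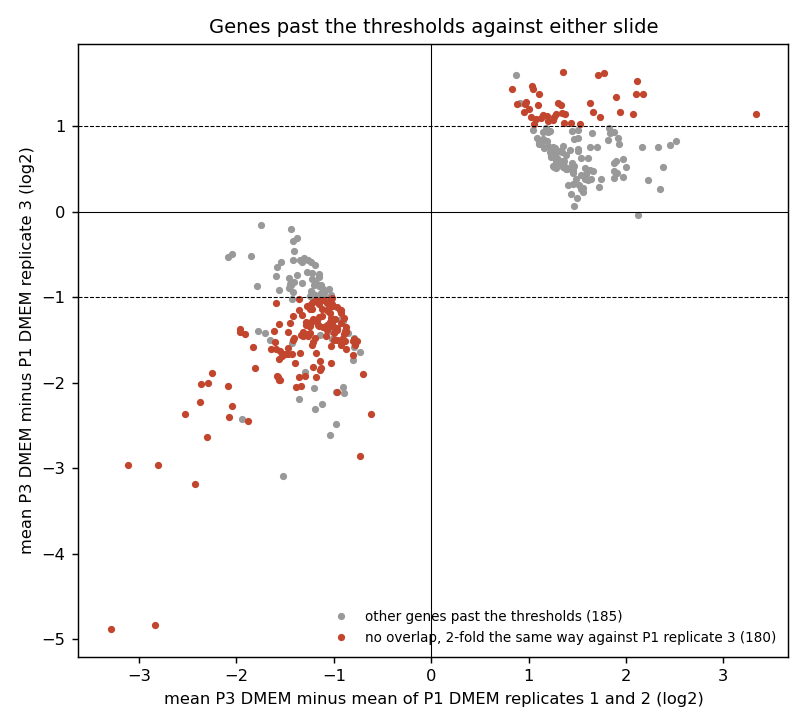
Each point is 1 gene past the thresholds. The horizontal axis gives the mean of the P3 DMEM arrays minus the mean of P1 DMEM replicates 1 and 2, and the vertical axis the same mean minus P1 DMEM replicate 3, which shares its slide (both log2); dashed lines mark a 2-fold difference. The 180 genes in red met the slide check, and most rises lie between the line at 0 and the upper dashed line.

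The P3 arrays did not contribute equally. Set against the P1 mean, P3 DMEM replicate 1 had 124 genes more than 2-fold higher and 148 lower, replicate 3 had 350 and 271, and replicate 2 had 1080 and 1252. P3 DMEM replicate 2 held the lowest level of 132 of the 140 falls (94.3%) and the highest level of 35 of the 40 rises (87.5%). Among all genes whose groups did not overlap it held the lowest level in 79.1% of those lower at P3 and the highest in 76.5% of those higher at P3. Without P3 DMEM replicate 2, 142 genes passed the thresholds, and 18 of the 40 rises and 57 of the 140 falls were among them. Without P3 DMEM replicate 1, which lay nearest to P1, 897 genes passed them, 66 also at an adjusted limma p of 0.05 or less, and without P1 DMEM replicate 3 the counts were 605 and 16.

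The largest of the 40 rises among genes with a symbol was that of DDC. DDC, the decarboxylase that makes dopamine and serotonin, was at −4.39, −4.28 and −2.14 in P1 DMEM replicates 1 to 3 and at −2.04, −0.41 and −0.54 in P3 DMEM replicates 1 to 3. Its P1 DMEM replicate 3 lay close to P3 DMEM replicate 1, with no overlap. DDC rose by 2.61 (SE 0.65), 6.09-fold, and by 1.14 against P1 DMEM replicate 3 alone.

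SULF2, an extracellular sulfatase that trims heparan sulfate, was at 0.37, 0.16 and 1.00 in P1 and 1.69, 3.46 and 1.96 in P3, a rise of 1.86 (SE 0.45). IGFBP5, a secreted binding protein of insulin-like growth factors, was at 2.29, 1.94 and 2.90 in P1 and 3.71, 4.88 and 3.60 in P3, a rise of 1.68 (SE 0.38). For both genes P3 DMEM replicate 2 was the highest array and the other P3 arrays still lay above all P1 arrays.

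CHRNA9, a subunit of nicotinic acetylcholine receptors, was at −0.90, −1.84 and −1.22 in P1 and 0.63, 0.62 and −0.03 in P3, a rise of 1.73 (SE 0.29). NEFM, the medium chain of the neurofilaments of axons, was at −4.72, −5.43 and −4.96 in P1 and −3.41, −2.88 and −3.79 in P3, a rise of 1.67 (SE 0.28). These rises were nearly as large against P1 DMEM replicate 3 alone, 1.63 for CHRNA9 and 1.60 for NEFM. NEFL, the light chain, did not pass the thresholds (0.89, with overlap) but did so without P1 DMEM replicate 1 (1.28) or P3 DMEM replicate 3 (1.05), and TUBB3, a tubulin of neurons, differed by −0.03.

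The other leading rises with the slide check met were SBSPON, a secreted protein with a thrombospondin domain (1.92, SE 0.31), and NFE2, a transcription factor of blood cells (1.91, SE 0.33). CALB1, the calcium-binding protein calbindin, rose by 1.76 (SE 0.36), STON1, an adaptor of endocytosis, by 1.72 (SE 0.43), and RARRES2, the secreted protein chemerin, by 1.53 (SE 0.32).

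The falls had another shape. The deepest among genes with a symbol was of the probe for RNA18SN5, a copy of the 18S ribosomal RNA gene whose near-identical copies the probe cannot separate. It was at −1.06, 0.07 and 1.09 in P1 and at −1.44, −6.90 and −3.03 in P3. P3 DMEM replicate 1 lay next to P1 DMEM replicate 1, while P3 DMEM replicates 2 and 3 lay far below. It fell by 3.82 (SE 1.23). Ribosomal RNA has no poly(A) tail, so its signal depends on how RNA was prepared and primed, and the part of RNA preparation in the falls described next was not tested.

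RNF222, a RING finger protein, was at 4.28, 3.89 and 4.25 in P1 and at 3.54, −2.07 and 2.38 in P3, a fall of 2.86 (SE 1.21) that missed the p threshold without any 1 of the P1 arrays, at −2.98 to −2.79. SIX6, a homeobox factor of the developing eye, was at −0.30, −0.05 and 0.58 in P1 and −0.53, −4.02 and −3.24 in P3, a fall of 2.68 (SE 0.78). C3AR1, the receptor of complement fragment C3a, was at 0.25, 0.41 and 0.65 in P1 and 0.01, −3.05 and −2.89 in P3, a fall of 2.41 (SE 0.72). In all 3 genes P3 DMEM replicate 1 was near the P1 arrays and P3 DMEM replicates 2 and 3 were lower, as for RNA18SN5.

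The same arrays set MBD6, a protein with a methyl-CpG-binding domain, at 3.62, 4.22 and 3.58 in P1 and 3.27, 0.63 and 0.78 in P3. DOK3, an adaptor of immune receptor signalling, was at 1.27, 1.28 and 0.98 in P1 and 0.67, −1.97 and −1.76 in P3. Here too P3 DMEM replicate 1 sat just under the P1 arrays. MBD6 fell by 2.25 (SE 0.63) and DOK3 by 2.20 (SE 0.62). The remaining leading falls, GGNBP1 (−2.47), FAM177B (−2.32), UBE2DNL (−2.13) and the RNA-binding protein RAVER1 (−2.12), ran the same way, each with P3 DMEM replicate 1 the highest and replicate 2 the lowest of the P3 arrays.

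**Figure D2:**
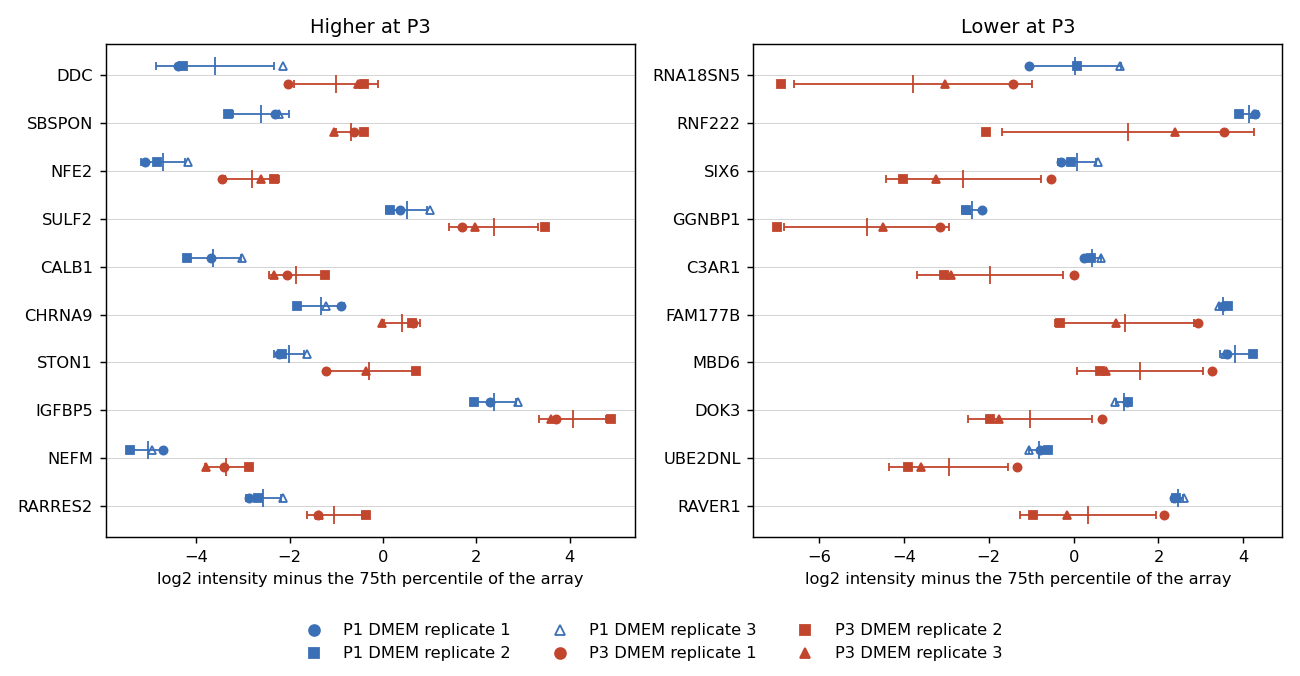
Level of the leading rises and falls that met the slide check in each of the 6 arrays (horizontal axis, log2 intensity relative to the 75th percentile of each array); symbols give replicates, blue is P1 and red is P3, and bars give the mean and SD of 3 arrays. In the rises the 3 P3 arrays lie above all P1 arrays, whereas in most falls P3 DMEM replicate 1 lies beside the P1 arrays and replicate 2 far below.

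The genes past the thresholds that did not meet the slide check show what it removes. MEDAG, a gene of fat cell formation, was at −1.63, −1.72 and −0.10 in P1 and 0.80, 0.72 and 0.45 in P3, a difference of 1.81 that came to 0.75 against P1 DMEM replicate 3. PCDH8, a protocadherin, differed by 1.95 and by 0.82 against that array. COL3A1, the chain of type III collagen, was at −2.19, −2.59 and −1.44 in P1 and −0.98, 0.04 and −0.60 in P3, and HLA-DRA, a chain of the class II complex of antigen presentation, at −5.05, −5.24 and −4.00 against −3.60, −3.00 and −3.02. Their differences of 1.56 and 1.55 came to 0.93 and 0.79. Among the falls, PRM2 (−2.04), MEIS3 (−1.65), MUC6 (−1.64) and ZNF497 (−1.61) failed the check because the groups overlapped. Of these genes PCDH8 (1.29), PRM2 (−1.52), MEIS3 (−1.19), MUC6 (−1.09) and ZNF497 (−0.91) no longer passed the thresholds without P3 DMEM replicate 2. PCDH8, MEIS3, MUC6 and ZNF497 also missed them without P1 DMEM replicate 1 (1.37, −1.08, −1.77 and −1.55). PCDH8, MUC6 and ZNF497 did so without P1 DMEM replicate 2 (1.96, −1.78 and −1.57), and MUC6 and ZNF497 without P1 DMEM replicate 3 (−1.36 and −1.71) or P3 DMEM replicate 3 (−1.26 and −1.47).

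Metallothioneins were lower in every P3 array than in every P1 array. Cells make these proteins through MTF1, a zinc-sensing factor that binds short metal response elements near the start of their genes. All 10 metallothionein genes measured were lower at P3 without overlap, against 9.2% of all genes tested. MT1G and MT1M fell past both thresholds, as did 1.09% of all genes. Promoter sequence was at hand for MT2A, MT1B, MT1H and MT1X, which are shown since the members moved together. The lines give the 250 bases before the start of each gene from RefSeq (GRCh38.p14, + strand): MT2A at chr16:56608334-56608583, MT1B at chr16:56651636-56651885, MT1H at chr16:56669564-56669813 and MT1X at chr16:56682220-56682469. Capitals mark the core of the metal response element, TGCACNC or TGCGCNC, on either strand.
MT2A: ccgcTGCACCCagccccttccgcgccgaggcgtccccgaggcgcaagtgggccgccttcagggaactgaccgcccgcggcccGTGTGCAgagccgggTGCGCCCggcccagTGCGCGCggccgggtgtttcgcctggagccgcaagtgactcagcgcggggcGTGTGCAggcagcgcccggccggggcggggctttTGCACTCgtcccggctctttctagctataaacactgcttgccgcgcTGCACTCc
MT1B: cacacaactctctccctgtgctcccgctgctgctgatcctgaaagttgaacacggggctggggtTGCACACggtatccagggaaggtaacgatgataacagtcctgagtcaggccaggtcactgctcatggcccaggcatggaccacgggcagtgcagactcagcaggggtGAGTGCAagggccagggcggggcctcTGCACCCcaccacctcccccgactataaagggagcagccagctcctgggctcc
MT1H: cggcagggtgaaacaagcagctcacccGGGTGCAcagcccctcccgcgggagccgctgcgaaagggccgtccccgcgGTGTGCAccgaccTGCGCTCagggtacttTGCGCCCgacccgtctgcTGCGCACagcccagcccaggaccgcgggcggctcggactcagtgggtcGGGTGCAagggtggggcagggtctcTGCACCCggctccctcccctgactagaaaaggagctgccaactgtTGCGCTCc
MT1X: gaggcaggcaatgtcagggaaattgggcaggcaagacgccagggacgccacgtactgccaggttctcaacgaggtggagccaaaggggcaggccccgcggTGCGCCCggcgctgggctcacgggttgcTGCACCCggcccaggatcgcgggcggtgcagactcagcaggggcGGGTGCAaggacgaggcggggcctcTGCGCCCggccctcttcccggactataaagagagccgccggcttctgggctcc
The core occurred 7 times in MT2A, 3 times in MT1B, 8 times in MT1H and 4 times in MT1X. Of 35116 promoter windows of the same length, 24.83% held it at least once, 1.58% at least 3 times and 0.3702% at least 4 times. A match is a description of the letters in the window and not evidence of binding.

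MT1G was at −0.95, −0.76 and −0.98 in P1 and −2.26, −2.44 and −1.85 in P3, with a mean of −0.89 ± 0.12 against −2.18 ± 0.30 (SD, n = 3 each). It fell by 1.29 (SE 0.19), 2.45-fold, and met the slide check with −1.21 against P1 DMEM replicate 3. MT1M was at 2.80, 3.13 and 2.46 in P1 and 1.59, 1.82 and 1.82 in P3, and fell by 1.05 (SE 0.20). In both genes the 3 P3 arrays lay together, and both still passed the thresholds without P3 DMEM replicate 2, at −1.16 and −1.09. MT1M missed a 2-fold difference from P1 DMEM replicate 3. It came to −0.89 without P1 DMEM replicate 2 and −0.98 without P3 DMEM replicate 1, just under 2-fold.

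MT2A, the most widely made form, was at 5.19, 5.26 and 5.38 in P1 and 4.61, 4.28 and 4.72 in P3, a difference of −0.74 (SE 0.18) that stayed under 2-fold. The remaining forms ran from −0.97 (SE 0.18) for MT1H and −0.91 (SE 0.26) for MT1F to −0.54 (SE 0.15) for MT1A and −0.48 (SE 0.22) for MT3, the form of the brain. MT1H lay so near 2-fold that it passed the thresholds without P1 DMEM replicate 1 or 3 or P3 DMEM replicate 1 or 3 (−1.03 to −1.02), and MT1F did without P1 DMEM replicate 1 (−1.12) or P3 DMEM replicate 3 (−1.12). The coding sequences of these genes are close to each other, so a probe of 1 form can take up RNA of another, and the 10 genes are not 10 separate measurements. SLC30A1, the zinc exporter that MTF1 also controls and the only other gene of the list, differed by −0.16 with overlap. The median over these 11 genes was −0.83, or −0.76 against P1 DMEM replicate 3 and −0.82 against P1 DMEM replicates 1 and 2, beside 0.04 over all genes.

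**Figure D3:**
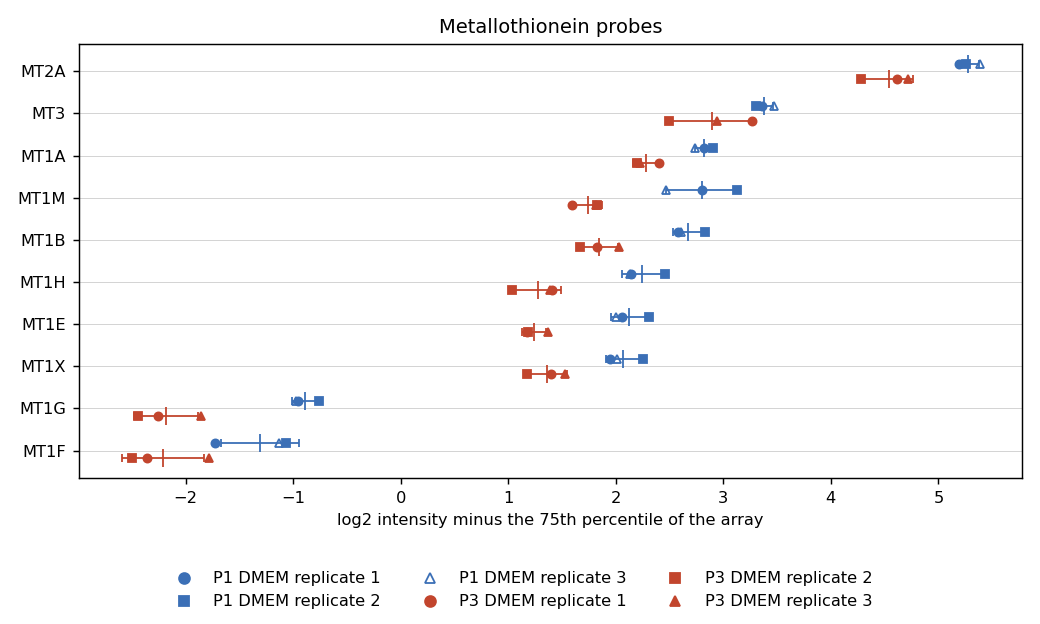
Level of the metallothionein genes in each of the 6 arrays (horizontal axis, log2 intensity relative to the 75th percentile of each array; symbols give replicates, blue is P1, red is P3, bars give mean and SD of 3 arrays). For each metallothionein the P3 arrays lie to the left of the P1 arrays, and P1 DMEM replicate 3 lies with the other P1 arrays.

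In the hedgehog pathway, where the coreceptors BOC, GAS1 and CDON help Sonic hedgehog bind PTCH1 and the GLI factors carry the signal, 3 of 17 measured genes rose and none (0) fell, beside 0.699% and 1.09% of all genes. BOC was at −2.08, −2.22 and −2.02 in P1 and −1.04, −0.64 and −1.18 in P3. It rose by 1.16 (SE 0.19) and met the slide check, with all P3 arrays well above all P1 arrays, though without P3 DMEM replicate 2 it came to 1.00, at the limit of 2-fold. GAS1 was at 0.60, 1.28 and 1.88 in P1 and 1.88, 2.98 and 3.07 in P3 and rose by 1.39 (SE 0.40), the groups all but touching at P1 DMEM replicate 3 and P3 DMEM replicate 1. GAS1 missed a 2-fold difference from P1 DMEM replicate 3.

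GLI1, a target and read-out of the pathway, was at −3.61, −3.77 and −2.34 in P1 and −2.75, −1.39 and −1.70 in P3. It rose by 1.29 (SE 0.45) with overlapping groups, and by 0.39 against P1 DMEM replicate 3. GLI1 missed the p threshold without P3 DMEM replicate 2 (1.01), P1 DMEM replicate 2 (1.03) or P3 DMEM replicate 3 (1.17), and also without P1 DMEM replicate 1, at a value between these. The receptor PTCH1, another target, differed by 0.17 (SE 0.22), GLI2 by 0.30 (SE 0.21) and the signal transducer SMO by 0.48 (SE 0.17). The median of the list was 0.17. SHH itself was well above background on 2 of 3 P1 and 3 of 3 P3 arrays and was not tested. The share of all probes well above background was also lower in P1 DMEM replicates 1 and 2.

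In the Wnt list 3 of 16 measured genes fell and none (0) rose, beside 1.09% and 0.699% of all genes. DKK1, a secreted inhibitor and target of Wnt signalling, was at 0.87, 1.50 and 0.70 in P1 and −0.44, −0.37 and 0.10 in P3 and fell by 1.26 (SE 0.25). The ligands WNT5B (−1.07, SE 0.24) and WNT7B (−1.01, SE 0.23) fell as well. All 3 had no overlap but missed a 2-fold difference from P1 DMEM replicate 3, at −0.94, −0.82 and −0.97. Under 2-fold were WNT5B without P3 DMEM replicate 2 (−0.85) or P1 DMEM replicate 2 (−0.92), and WNT7B without either of these (−0.83 and −0.88) or P3 DMEM replicate 1 (−0.99). AXIN2, a common target of Wnt signalling through beta-catenin, differed by 0.29 and CTNNB1, beta-catenin itself, by −0.75, neither past the thresholds.

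Targets of YAP and TEAD were mostly lower at P3, in 17 of 21 genes, with 9 of them (42.9%) free of overlap and 2 past the thresholds, beside 20.4% and 1.78% of all genes. ANKRD1, a target read as a measure of YAP activity, was at −0.97, −1.27 and −1.30 in P1 and −1.86, −2.57 and −2.31 in P3 and fell by 1.07 (SE 0.22). CRIM1 fell by 1.08 (SE 0.28). Both genes missed a 2-fold difference from P1 DMEM replicate 3. Neither was past 2-fold without P3 DMEM replicate 2 (−0.91 and −0.86), nor ANKRD1 without P1 DMEM replicate 1 (−0.96) or CRIM1 without P1 DMEM replicate 2 (−0.91). The well-known targets CCN2 (−0.51, SE 0.30) and CCN1 (0.12, SE 0.36) did not pass the thresholds, and both overlapped. The median of the list was −0.33, and −0.37 against P1 DMEM replicate 3.

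Among growth genes CCND1, cyclin D1 of the G1 phase, was at 2.05, 2.36 and 2.35 in P1 and 1.11, 0.74 and 1.65 in P3. It fell by 1.09 (SE 0.25) and met the slide check, with every P3 array under every P1 array, and came to −0.88 without P3 DMEM replicate 2. RRM2, the subunit of ribonucleotide reductase made in S phase, was at 1.07, 1.43 and 0.60 in P1 and 0.34, −0.89 and −0.40 in P3 and fell by 1.35 (SE 0.34). RRM2 missed a 2-fold difference from P1 DMEM replicate 3. CCND1 and RRM2 were the only ones of 36 genes of G1/S and DNA replication past the thresholds (5.56% fell, beside 1.09% of all genes). Of the 36 genes, 25 were higher at P3 (median 0.12), as were 11205 of all 20451 genes. None (0) of 35 genes of G2/M and mitosis passed them (median 0.20). GAS6, a ligand of the receptor AXL listed with the quiescence genes, fell by 1.04 (SE 0.28), and came to −0.79 without P3 DMEM replicate 2 and −0.85 without P1 DMEM replicate 2. Of the 17 measured genes of that list 1 fell and 1 rose (5.88% each, beside 1.09% and 0.699% of all genes), with a median of −0.01.

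Of the growth factor response, FOSL1, an AP-1 subunit induced through ERK, was at −0.01, 0.49 and 0.87 in P1 and −0.60, −1.25 and −0.07 in P3 and fell by 1.09 (SE 0.33). ETV5, a factor of the same route, fell by 1.04 (SE 0.38). For both the lowest array was P3 DMEM replicate 2. Of 18 measured genes of the TGF-beta list 1 rose and 1 fell (5.56% each, beside 0.699% and 1.09% of all genes), with a median of −0.15. The gene that rose was the ligand TGFB3, by 1.06 (SE 0.36), and the gene that fell is not reported by name here. ID4, a repressor induced by BMP, rose by 1.05 (SE 0.27). FOSL1, ETV5 and TGFB3 met the slide check and ID4 did not. None of these 4 named genes passed the thresholds without P3 DMEM replicate 2, with FOSL1 at −0.79, ETV5 at −0.62, TGFB3 at 0.65 and ID4 at 0.85. FOSL1 (−0.88), ETV5 (−0.80) and TGFB3 (0.96) also missed them without P1 DMEM replicate 3, ETV5 (−1.04), TGFB3 (1.01) and ID4 (0.99) without P1 DMEM replicate 2, and ID4 (0.89) without P1 DMEM replicate 1.

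**Figure D4:**
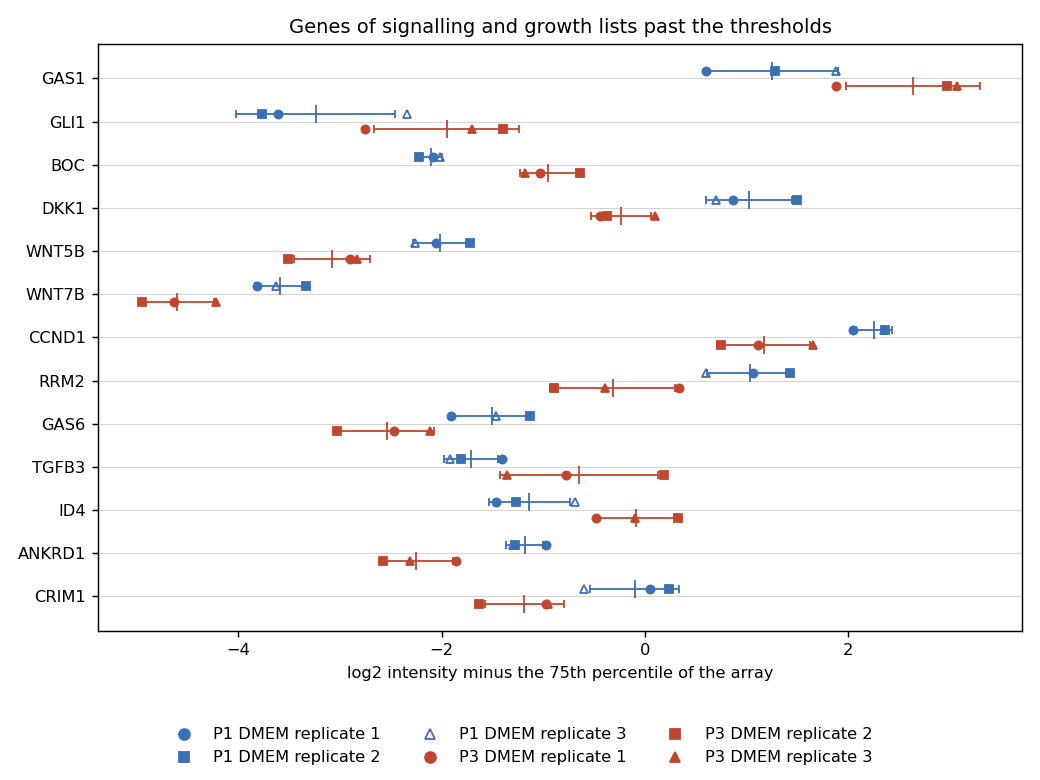
Level of genes of the hedgehog, Wnt, cell cycle, TGF-beta, BMP and YAP lists past the thresholds in each of the 6 arrays (horizontal axis, log2 intensity relative to the 75th percentile of each array; symbols give replicates, blue is P1, red is P3, bars give mean and SD of 3 arrays). GLI1 is the gene shown whose groups overlap, and GAS1 the gene whose groups all but touch.

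Inflammatory genes were high in 1 array of each group. CXCL8, the chemokine interleukin 8, was at −0.52, 0.51 and 2.78 in P1 and −2.07, −3.25 and 1.55 in P3. P1 DMEM replicate 3 and P3 DMEM replicate 3 were the highest arrays of their groups, the groups overlapped, and the difference of −2.18 (SE 1.23) did not pass the thresholds. Without P3 DMEM replicate 3 it was −3.58 and passed them, and without P1 DMEM replicate 3 it was −1.25 and without P3 DMEM replicate 2 −1.18. TNFAIP3, a feedback inhibitor of NF-kB, was at 0.13, 0.05 and 2.40 in P1 and −0.47, −0.66 and 2.02 in P3, with the same arrays high. Its difference of −0.56 (SE 0.83) turned to 0.21 without P1 DMEM replicate 3.

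Of 20 chemokine and cytokine genes, LIF (−1.35, SE 0.54) and IL1B (−1.24, SE 0.47) fell, both with overlapping groups. That is 10%, beside 1.09% of all genes. None (0) of 16 NF-kB genes passed the thresholds. LIF no longer passed without P3 DMEM replicate 2 (−0.87), P3 DMEM replicate 1 (−1.25), P1 DMEM replicate 2 (−1.42) or P1 DMEM replicate 3 (−0.98), and IL1B without P3 DMEM replicate 2 (−0.69), P1 DMEM replicate 2 (−1.22) or P1 DMEM replicate 3 (−1.14). The median difference of the NF-kB list was −1.09 against P1 DMEM replicate 3 and 0.20 against P1 DMEM replicates 1 and 2. The same turn of sign was seen for immediate early genes (−0.78 and 0.17), targets of ATF4, the factor of amino acid shortage (−0.79 and 0.36), hypoxia targets (−0.18 and 0.57), interferon-stimulated genes (−0.16 and 0.41) and enzymes of cholesterol synthesis (0.40 and −0.62). For these lists the sign of the median depended on which P1 arrays the P3 mean was set against, so no single direction is given. Relative to the gene means, the NF-kB median was −0.41, −0.24 and 1.02 in P1 and −0.49, −0.36 and 0.62 in P3. P3 DMEM replicates 1 and 2 thus lay apart from P1 DMEM replicate 3, whose slide they share. By replicate number each P3 median was lower for NF-kB, cytokine and immediate early genes, higher for hypoxia targets and mixed in the rest. The labels do not say whether these numbers pair the samples, so no direction is taken from this either.

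**Figure D5:**
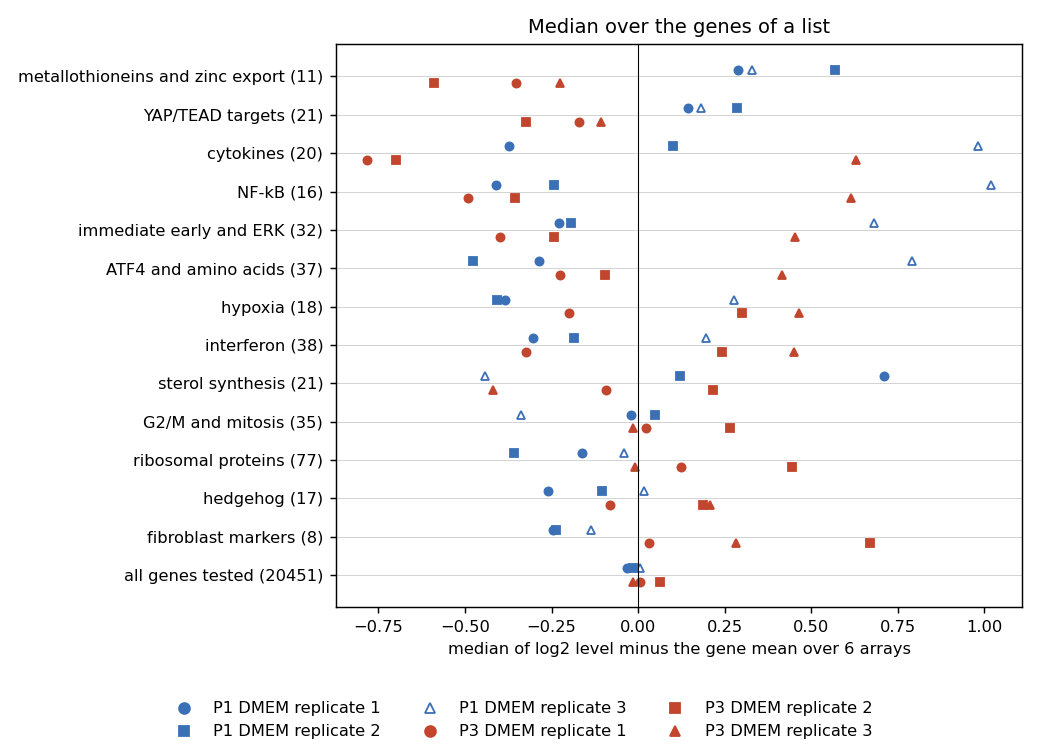
Each point is 1 array and gives the median, over the genes of a list (number in brackets), of the level minus the mean level of that gene in the 6 arrays (horizontal axis, log2); symbols give replicates, blue is P1 and red is P3. Metallothioneins and YAP/TEAD targets have all P3 arrays below all P1 arrays, while in the NF-kB, cytokine, immediate early and ATF4 lists P1 DMEM replicate 3 and P3 DMEM replicate 3 lie together on the right.

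Single genes of other lists passed the thresholds. APOE, the apolipoprotein of cholesterol efflux, was at 0.74, 0.44 and 1.16 in P1 and 1.72, 1.96 and 1.79 in P3 and rose by 1.04 (SE 0.21). The adhesion genes CADM3 (1.53, SE 0.39) and CDH10 (1.27, SE 0.33) rose with no overlap, and IFITM1, an interferon-induced membrane protein (1.52, SE 0.49), and EPCAM, an epithelial adhesion protein (1.24, SE 0.44), rose with overlap. APOE (0.66 against P1 DMEM replicate 3), CADM3, CDH10, IFITM1 and EPCAM did not meet the slide check. SOX9, a factor of glial cells, fell by 1.16 (SE 0.40), and TXNRD1, a thioredoxin reductase, fell 2.14-fold. Both genes met the slide check and had their lowest level in P3 DMEM replicate 2. Without that array APOE (0.97), IFITM1 (1.20), EPCAM (0.82), TXNRD1 (−0.50) and SOX9 (−0.69) missed the thresholds. They were also missed by CDH10 (0.98), IFITM1 (1.18), EPCAM (0.97) and TXNRD1 (−1.22) without P1 DMEM replicate 1, by APOE (0.87), EPCAM (1.20), TXNRD1 (−1.11) and SOX9 (−1.09) without P1 DMEM replicate 2, and by TXNRD1 (−0.97) and SOX9 (−0.99) without P1 DMEM replicate 3. In all, 30 of 844 listed genes passed the thresholds, 12 upwards and 18 downwards, beside 1.78% of all genes (0.699% and 1.09%), and the count was 9 without P3 DMEM replicate 2.

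Genes that the study followed for its phenotypes did not pass the thresholds between the passages in control medium with all 6 arrays in the fit. The adhesion genes NFASC, L1CAM and NCAM2 differed by −0.12 (SE 0.17), −0.37 (SE 0.21) and −0.13 (SE 0.16). Among markers of stem-like cells NES differed by 0.05 (SE 0.20), POU5F1 by 0.50 (SE 0.41), SOX2 by 0.71 (SE 0.41) and FUT4, which makes the CD15 epitope, by 0.14 (SE 0.21). The groups overlapped in each. Without P3 DMEM replicate 3 SOX2 came to 1.07 and passed the thresholds, and without P1 DMEM replicate 3 it came to 0.31. PROM1, which encodes CD133, was well above background on 1 of 3 P1 and 3 of 3 P3 arrays and was not tested. NANOG, another stem marker, had the same counts. Of all probes, 74.2% and 80.2% were well above background in P1 DMEM replicates 1 and 2, against 88.1% to 91.0% on the slide of P3 DMEM. These counts can therefore not be read as a change with passage.

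Genes near the detection limit were counted apart. On all 3 P3 arrays and on no (0) P1 array, 84 genes were well above background, 45 of them with a symbol, and the opposite was found for none (0). The fold of such a gene is a lower bound, from the P3 mean and, on each P1 array, the higher of the dimmest signal called well above background and the signal of the probe itself. This bound was above 1-fold for 18 of the 84 genes, and for the other 66 no fold is given. ARPP21, a cAMP-regulated phosphoprotein of the brain, was at −7.74, −8.29 and −9.19 in P1, not well above background, and at −5.62, −4.95 and −4.53 in P3, at least 2.38-fold higher. Among genes with a symbol the next bounds were at least 1.49-fold for TLL1, 1.36-fold for NUDT16L2P, 1.18-fold for ARG1 and 1.09-fold for S100B. Without P1 DMEM replicate 3 the count was 2000 and without P3 DMEM replicate 3 it was 302.

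The passage change was set beside that in ACM, from arrays that are not shared but lie partly on the same slides. In ACM passage and slide were largely joined as well. All arrays of P1 ACM lay on a single slide, and from P3 ACM only replicate 1 was placed with them. The other P3 ACM arrays lay on another slide. How far slide accounts for the directions in ACM given below was not tested. Of the 140 falls with the slide check met, 139 (99.3%) were also lower at P3 in ACM, as were 53.5% of all genes. The leading falls ran alike across arrays, so these genes are not separate observations. In each of the leading falls P3 ACM replicate 1 was the highest and replicate 3 the lowest of the P3 ACM arrays. SIX6, for example, was at 0.28, 1.03 and −1.73 in P1 ACM and 0.85, −1.64 and −3.85 in P3 ACM. Of the 40 rises, 24 (60%) were higher at P3 in ACM, as were 46.5% of all genes. A fit of all 12 arrays found no gene (0) in which the change in ACM differed from that in DMEM at an adjusted limma p of 0.05 or less, the smallest being 0.99997, and 788 genes at or under 0.05 before adjustment. Without P3 ACM replicate 1 the count was 1206.

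Among the leading rises, SBSPON (−1.04), DDC (−0.69), IGFBP5 (−0.64), SULF2 (−0.61), RARRES2 (−0.56) and CALB1 (−0.43) were lower at P3 in ACM. STON1 (0.45), NEFM (0.32), CHRNA9 (0.07) and NFE2 (0.03) were higher. BOC changed by −0.07 in ACM. MT1G changed by 0.20 in ACM, where it was at −1.50, −1.02 and −3.25 at P1 and −0.94, −1.59 and −2.63 at P3, and the median of the metallothionein list was 0.28. P1 ACM replicate 3 was the lowest of these ACM arrays. RNA18SN5 was at −0.65, 1.64 and −2.13 in P1 ACM and 1.56, −1.71 and −4.88 in P3 ACM. The arrays lowest for RNA18SN5 in ACM, P3 and P1 ACM replicate 3, were also lowest for MBD6, at 0.86 and 0.87 beside 3.30 to 4.61 in the other ACM arrays, and for DOK3, at −1.79 and −0.62 beside 0.63 to 1.45. The part of RNA preparation in this was not tested.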

How the data were processed

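RNA of Daoy cells extracted with TRIzol was labelled with Cy3 and hybridised to single-colour arrays. The authors deposited scanner output from Agilent Feature Extraction 11.0.1.1, whose processed intensity is background-corrected and not normalized between arrays, and a table of log2 values of 30569 probes, used only as an alternative under its own labels, which conflict with the scanner output.

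Controls and outlier-flagged spots were dropped and repeated spots of a probe averaged. Log2 intensities, each less its array's 75th percentile, were compared over 6 arrays, without covariates, with the moderated linear models of limma 3.58.1 (lmFit, eBayes; R 4.3.3; two-sided, Benjamini-Hochberg adjustment over kept probes). A gene was read through its kept probe with the highest mean. Accessions matched to RefSeq (GRCh38.p14) named 25771 of 34127 probes (75.51%). The change with passage in ACM was compared in a fit of 12 arrays. The number of arrays limits the precision. Scripts were tested on simulated data. Python 3.11.15, pandas 2.3.3 and matplotlib 3.10.9 were used.

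Named genes were the 10 largest rises and falls that met the slide check, the 4 largest each way that did not, up to 4 members of each of 43 gene lists with the largest difference, the 5 largest bounds and genes the study names. SMO, PTCH1, GLI2, AXIN2, CCN1, CCN2, CTNNB1, NEFL, TUBB3 and further members of lists were named after their values were seen. Arrays, lists and rules were chosen with earlier results of these data known. Deviations of same-numbered arrays from their group means correlated across genes by 0.39, −0.04 and 0.61, and those of unlike-numbered arrays by −0.61 to 0.14. The labels do not say whether the numbers pair the samples, and the main fit left them unpaired. With the replicate number as a block 3684 genes had a limma p of at most 0.05 before adjustment, beside 2520. The smallest adjusted limma p was then 0.179, beside 0.397. The alternatives were other normalizations, filters, tests and probe rules, the deposited table, the slide or replicate number as a block, and each array left out. Some listed genes past the thresholds are counted but not reported by name here.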

Additional observations from a re-analysis of the deposited data

How the results depend on the processing

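The 365 genes past the thresholds became 189 with normexp background correction, 1000 without a filter on dim probes, 581 when a probe needed to be above background in 1 group only, 140 in the brighter 50% of probes, 161 with the methods' t-test and 31 in the deposited table under its own labels, which shared none (0) of the 365. The filters also changed the number of genes measured, from 20451 to 27645 without a filter, 24077 with the wider filter and 10886 in the brighter 50%. The genes past the thresholds ranged from 142 (without P3 DMEM replicate 2) to 897 (without P3 DMEM replicate 1) when an array was left out, with 605 without P1 DMEM replicate 3. Rises and falls split as 179 and 194 with median centring, 84 and 349 with slide as a fixed block (143 of these 433 were among the 365, and 123 of the 399 with only the arrays on the slide of P3 DMEM), 366 and 215 with the wider filter and 88 and 73 with the t-test. Genes with an adjusted limma p of 0.05 or less ranged from 0 to 66 when an array was left out, with 16 without P1 DMEM replicate 3 and 66 without P3 DMEM replicate 1, and were 0 in the other alternatives. The fit with the replicate number as a block gave 426 genes, 0 of them after adjustment, and every one of the 365.

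Of 74 genes followed by name, 54 passed the thresholds. Of these 54, those that still passed were 28 with the t-test, 20 with slide as a fixed block and 17 with only the arrays on the slide of P3 DMEM. They were 0 in the deposited table and 30 to 51 when an array was left out. In the brighter 50% they were 30, but only 43 of the 74 were measured there. Of the genes that met the slide check, the 16 rises and 58 falls measured in the brighter 50% all still passed. The number of listed genes that passed, not always the same ones, was 30 of 844, and 18 with normexp and 18 of the 641 measured in the brighter 50%. It was 65 with slide as a fixed block, 63 with only the arrays on the slide of P3 DMEM, 4 in the table and 9 to 49 when an array was left out. The t-test was not run on the lists. Genes well above background at only 1 of the passages, in either direction, were 84, 2009 when 1 of 3 arrays could be above background at the other passage, and 90 to 2000 when an array was left out. Genes whose change differed between media ranged from 0 to 1206. Of the 54, none turned in direction outside the deposited table, where it turned for DDC (−0.93), SBSPON (−0.77), NFE2 (−0.25), CALB1 (−0.56), CHRNA9 (−0.52), NEFM (−0.72), GGNBP1 (0.063), FAM177B (0.057), PCDH8 (−0.010), HLA-DRA (−0.33), GLI1 (−0.63), DKK1 (0.91), WNT5B (0.56), WNT7B (0.11), TGFB3 (−0.033), CCND1 (0.079), RRM2 (0.18), GAS6 (0.18), ANKRD1 (0.13), CRIM1 (0.48), IL1B (0.078), EPCAM (−0.029), CADM3 (−0.13) and IFITM1 (−0.024). Its columns carry other labels, and further causes were not tested. Of named genes not past the thresholds, MT3 (0.36), NEFL (−0.54), NFASC (0.31), L1CAM (0.64), NCAM2 (0.83), POU5F1 (−0.25), SOX2 (−0.10) and FUT4 (−0.19) turned there, TNFAIP3, NES and FUT4 when an array was left out, and POU5F1 and FUT4 by the slide.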

Other observations

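BMP signalling acts through ID genes, repressors of differentiation. Beside ID4, ID2 was at 0.35, 0.62 and 0.27 in P1 DMEM and 1.19, 1.98 and 1.04 in P3 DMEM, a difference of 0.99 (SE 0.26) just under 2-fold, and ID1 differed by 0.52 (SE 0.15), both without overlap. The secreted BMP inhibitor GREM1 was at 2.20, 1.91 and 1.28 in P1 and 0.94, 0.41 and 1.21 in P3, a difference of −0.94 (SE 0.29). In the Notch list, which holds receptors, ligands and targets, the receptor NOTCH3 differed by 0.89 (SE 0.30) and the target HEYL by 0.81 (SE 0.23) without overlap, while NOTCH1 differed by −0.47 (SE 0.19). None of these passed the thresholds.

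Of 37 collagen, laminin and other matrix genes, 24 were higher at P3, with a median of 0.23, and 0.14 after quantile normalization. Of the 37, 16 did not overlap (43.2%, beside 20.4% of all genes), 11 of them higher and 5 lower at P3. Among the 37, 1 gene, COL3A1, passed the thresholds (beside 1.78% of all genes). LAMB2 differed by 0.73 (SE 0.23) and DCN by 0.92 (SE 0.20), and the matrix protein THBS1 by −0.74 (SE 0.23). Fibroblast markers, which share COL3A1 and DCN with that list, were higher in 7 of 8, with a median of 0.53. Of 77 ribosomal protein genes 76 were higher at P3 and none (0) passed the thresholds, with a median of 0.38 that came to 0.07 after quantile normalization. For 36 respiratory chain genes the median was 0.29, and 0.12 after quantile normalization.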
